A study of Mus musculus with 6 samples.

Results

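Otx1, Otx2, En1, En2 and Gbx2 are the homeobox genes that mark the midbrain and its border with the hindbrain. They were taken by symbol, and all 5 were found among the 17296 genes present in both deposited tables of mouse neural tube organoids. In the embryo, the orthodenticle-related factors Otx1 and Otx2 define forebrain and midbrain, and the gastrulation brain homeobox factor Gbx2 defines the anterior hindbrain. The line where the Otx2 and Gbx2 territories meet becomes the isthmus, a signalling centre that secretes Fgf8 and Wnt1. The engrailed factors En1 and En2 are expressed across that line and maintain midbrain and anterior hindbrain identity. Otx2 and Gbx2 also act earlier, in the epiblast, and En1 is used again later by a class of spinal interneurons.

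Organoids were grown in Matrigel from mouse embryonic stem cells that carry a Sox1::eGFP and a Bra::mCherry reporter, and 100 organoids were dissociated for each condition. Every group, the day 6 ones included, had been cultured with bFGF and activin-A, which were withdrawn at day 3. The groups were non-elongated organoids at day 6 (1 library) and elongated organoids at days 6 (2 libraries, labelled as separate batches), 7, 8 and 10 (1 library each). Organoids older than day 6 had been moved to fresh Matrigel, 1 per drop. A single line was used, the labels name no further clone or culture, and each library pools many organoids, so p-values measure only the spread between these 6 libraries.

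The libraries held 2076 to 3677 cells, 74072752 to 152742819 UMIs (counted transcript molecules) and a median of 22053 to 59014 UMIs per cell. Non-elongated day 6 and elongated day 6 replicate 1 share one deposited table, and replicate 2 shares the other table with days 7, 8 and 10. Each of the 15 pairs of libraries shared 1 to 4 cell barcodes. The elongated day 6 duplicates stood apart in 3 of the 5 genes. Otx2 was lower by a log2 difference of -2.97 in replicate 2 than in replicate 1, a size at the 99.1 percentile of all tested genes. En1 differed by -2.02 and En2 by -1.69, at the 97.3 and 95.8 percentiles. Otx1 differed by -0.32 and Gbx2 by 0.23, near the middle of the genes. Results that compare with day 6 are therefore also given against each duplicate by itself.

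The homeobox of each gene is the stretch of coding sequence for the DNA-binding homeodomain, and it shows how the members relate. Each stretch below is 180 bases, or 60 codons, from the GENCODE M21 transcripts on build GRCm38, written 5′ to 3′ on the coding strand. Capitals mark the 18 bases that encode the core of the helix that reads the DNA base sequence.
Otx1: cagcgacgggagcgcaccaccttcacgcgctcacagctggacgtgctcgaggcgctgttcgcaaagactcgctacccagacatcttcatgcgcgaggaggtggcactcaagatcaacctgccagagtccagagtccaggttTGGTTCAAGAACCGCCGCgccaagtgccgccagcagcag
Otx2: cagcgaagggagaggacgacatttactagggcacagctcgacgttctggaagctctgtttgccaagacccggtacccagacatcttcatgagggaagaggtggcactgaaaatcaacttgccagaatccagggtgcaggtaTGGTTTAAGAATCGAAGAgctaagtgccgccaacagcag
En1: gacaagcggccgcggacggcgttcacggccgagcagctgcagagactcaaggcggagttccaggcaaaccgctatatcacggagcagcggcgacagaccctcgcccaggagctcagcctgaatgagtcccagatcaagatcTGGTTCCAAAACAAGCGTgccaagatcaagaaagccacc
En2: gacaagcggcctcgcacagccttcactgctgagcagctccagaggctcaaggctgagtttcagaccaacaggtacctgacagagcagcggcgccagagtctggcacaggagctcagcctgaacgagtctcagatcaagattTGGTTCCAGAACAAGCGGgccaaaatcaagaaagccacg
Gbx2: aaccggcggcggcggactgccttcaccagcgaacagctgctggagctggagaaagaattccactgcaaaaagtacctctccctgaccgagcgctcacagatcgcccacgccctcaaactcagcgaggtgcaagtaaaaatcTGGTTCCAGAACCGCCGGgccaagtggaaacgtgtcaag
The third codon in capitals was AAG in Otx1 and Otx2, CAA in En1 and CAG in En2 and Gbx2. Otx1 and Otx2 shared 144 of 180 bases (80.0%) and En1 and En2 shared 150 (83.3%), whereas the other pairs shared 42.8% to 58.3%. The counted reads come from the 3′ ends of transcripts and not from the homeobox.

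On GRCm38, Otx2 lies at chr14:48657677-48673819 on the minus strand and Otx1 at chr11:21994764-22002897, also on the minus strand. En1 lies at chr1:120602418-120607992 and En2 at chr5:28165694-28172166, both on the plus strand, and Gbx2 at chr1:89927956-89931179 on the minus strand. Otx2 shares 5112 bases of its span with the antisense long noncoding RNA Otx2os1. Otx2os1 had 4 UMIs in the non-elongated library, 4 at day 10 and 0 in the other 4 libraries, and how the counting treated strand is not given in the sources used here.

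Levels are given as TMM-scaled counts-per-million (CPM) of UMIs over all cells of a library, and since UMIs of 3′ ends are not scaled by length, levels are compared between libraries and not between genes. In such sums, fewer cells with a transcript and less transcript per cell cannot be told apart. Otx2, the forebrain and midbrain determinant, had 7.29 CPM in non-elongated organoids, against 5.97 and 0.743 CPM in the elongated day 6 replicates 1 and 2. In elongated organoids it was then at 1.40 CPM on day 7, 0.0757 CPM on day 8 and 4.39 CPM on day 10. The level was high at day 6 in the shared table, near 0 at day 8 (9 UMIs) and high again at day 10 (439 UMIs). Otx1, its close relative, had 0.837 CPM in non-elongated organoids, 0.260 and 0.205 CPM in elongated day 6 replicates 1 and 2, and 0.422, 0.0336 and 0.0701 CPM at days 7, 8 and 10. These levels rest on 4 to 58 UMIs a library, and Otx1 shows no counterpart of the Otx2 level at day 10.

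En1 had 13.0 CPM in non-elongated organoids, against 11.5 and 2.83 CPM in elongated day 6 replicates 1 and 2. At days 7, 8 and 10 it had 1.02, 1.20 and 1.37 CPM, all below both duplicates. En2 had 2.35 CPM in non-elongated organoids and 1.27 and 0.382 CPM in the elongated day 6 replicates, with 0.126, 0.227 and 0.160 CPM at days 7, 8 and 10. En1 and En2 thus had the same 3 tiers: non-elongated and replicate 1 high, replicate 2 lower, and the later days lowest. Gbx2, the hindbrain partner of Otx2, differed least at day 6, with 35.05 CPM in non-elongated and 34.6 and 40.5 CPM in elongated replicates 1 and 2. It had 5.66 CPM at day 7, 13.3 CPM at day 8 and 9.97 CPM at day 10, and no later library overlapped the day 6 libraries.

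**Figure D1:**
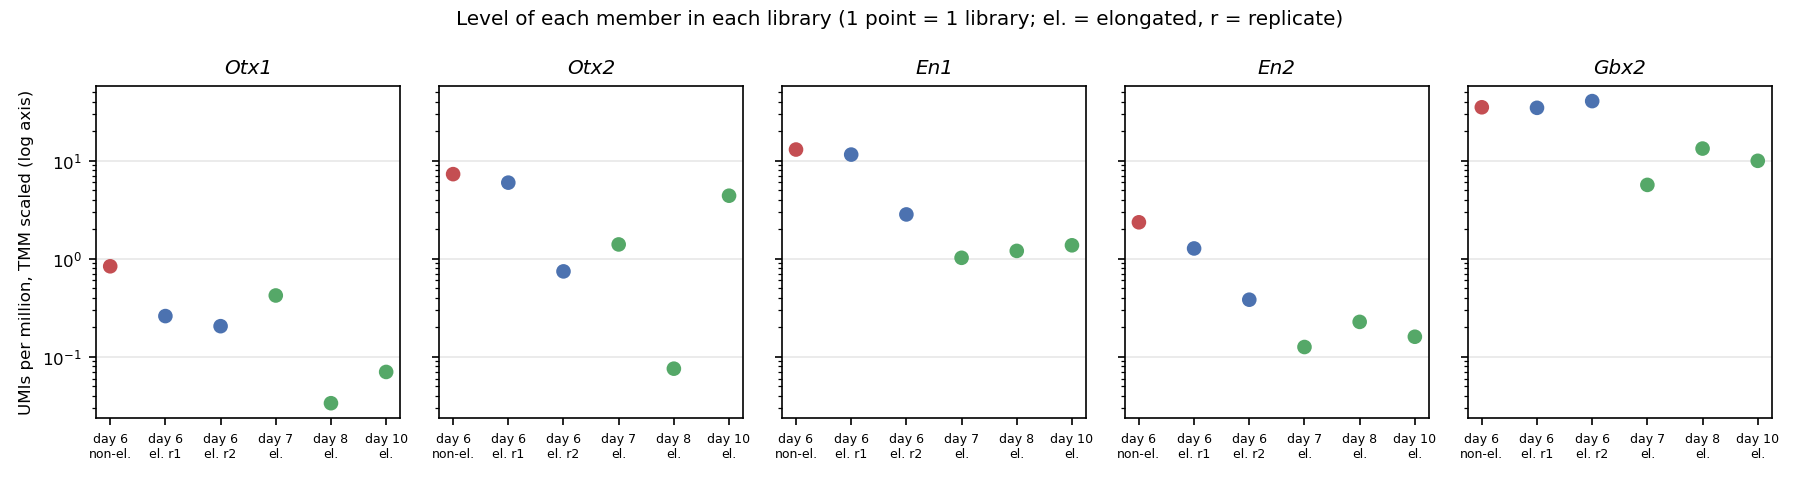
Level of each gene in each of the 6 libraries, in TMM-scaled CPM on a log axis; each point is 1 library, with non-elongated day 6 at the left, the elongated day 6 duplicates next and days 7, 8 and 10 after them. Gbx2 lies between 34.6 and 40.5 at day 6 and between 5.66 and 13.3 later, while Otx2 falls to 0.0757 at day 8 and stands at 4.39 at day 10.

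At day 6 none of the 5 genes was called for non-elongated against elongated organoids by edgeR's quasi-likelihood test with Benjamini-Hochberg adjustment over 16379 genes, and 0% of all genes were. At an unadjusted p under 0.05 there were 1137 genes, and DESeq2 called 127. The log2 fold change of Otx1 was 1.85 ± 0.66 (SE; adjusted p = 0.601), with 1.53 ± 0.73 for En2 (0.779), 1.13 ± 0.93 for Otx2 (0.999) and 0.86 ± 0.69 for En1 (0.999). The positive values of Otx2 and En1 rest on replicate 2: against replicate 1, which shares the table with the non-elongated library, they were 0.29 for Otx2 and 0.17 for En1, and against replicate 2 they were 3.26 and 2.19. Gbx2 had -0.10 ± 0.30 (0.999), with -0.21 against replicate 2 and 0.02 against replicate 1.

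At day 7 Gbx2 was below its day 6 level (log2 fold change -2.73 ± 0.34 SE, adjusted p = 0.00839), and it was the 1 member of 5 called, beside 3.99% of all tested genes. En1 (-2.81 ± 0.83, adjusted p = 0.126) and En2 (-2.69 ± 0.91, 0.175) had estimates of similar size with wider errors. Against each duplicate by itself, the day 7 value of En1 was -3.47 for replicate 1 and -1.45 for replicate 2, and that of Gbx2 was -2.61 and -2.83. Gbx2 therefore kept its size with either duplicate, and En1 did not. Otx2 had -1.25 ± 1.02 (0.601) and Otx1 0.87 ± 0.67 (0.579), and the Otx2 value was 0.90 against replicate 2.

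At day 8, both Gbx2 (-1.5 ± 0.32 on the log2 scale, adjusted p = 0.0218) and Otx2 (-5.44 ± 1.38, 0.0404) were lower than at day 6, 2 of 5 members beside 13.4% of all genes. The Otx2 value was -5.99 against replicate 1 and -3.01 against replicate 2, and its call was lost without the count filter (adjusted p = 0.0569) and with a higher one (0.072), within a range of 3e-06 to 0.072 over the alternatives. En1 (-2.57 ± 0.82, adjusted p = 0.0796), Otx1 (-2.74 ± 0.90, 0.0885) and En2 (-1.84 ± 0.86, 0.201) did not pass. At day 10, Gbx2 alone was called (-1.91 ± 0.33, adjusted p = 0.00599), 1 of 5 beside 26.4% of all genes. En1 had -2.38 ± 0.81 (0.0652), En2 -2.34 ± 0.90 (0.094), Otx1 -1.70 ± 0.83 (0.168) and Otx2 0.40 ± 0.94 (0.78). Against replicates 1 and 2 by themselves, En1 had -3.24 and -1.22 at day 8 and -3.06 and -1.04 at day 10, and Otx2 had -0.44 and 2.53 at day 10. Restricted to the authors' neural progenitor classes, Gbx2 had adjusted p-values of 0.0902 at day 8 and 0.0603 at day 10, and En1 passed instead (0.0448 and 0.0334). That restriction kept 1333 of 2076 cells in elongated day 6 replicate 1, without its epiblast classes. In replicate 2, where no epiblast class is named, it kept 2305 of 2402 cells. The duplicates are then unlike sets of cells, with Gbx2 at 25.6 and 39.7 CPM in replicates 1 and 2, so the calls are not a like-for-like restriction. The day 7, day 8 and day 10 comparisons share the same day 6 libraries. A straight line over days in the 5 elongated libraries called 0 of 5 members, beside 23.2% of 16343 genes by edgeR, with 6560 genes at an unadjusted p under 0.05. Its slopes per day were -0.61 for En1, -0.59 for En2, -0.56 for Otx1, -0.46 for Gbx2 and 0.05 for Otx2, and DESeq2 also called none of the 5.

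The day 6 table carries the authors' cell classes, and these placed Otx2, En1 and En2 in a small set of cells. Levels per class are unscaled CPM, from the UMIs and total of that class, with exact 95% Poisson intervals, which cover counting error only, and no test is given, because there is 1 library a group and the classes were made from the same cells. The Midbrain class held 102 cells (4.58%) of the non-elongated library and 86 cells (4.14%) of elongated replicate 1. All 5 of its listed midbrain markers (Otx2, En1, En2, Pax2, Pax5) had UMIs, with a summed 406 CPM in the class and 17.1 CPM in the other cells of the non-elongated library, and 324 and 19.0 CPM in elongated replicate 1. Otx2, En1 and En2 are members themselves, so that sum is no separate check of the class. Pax2 had 66.6 against 5.55 CPM in non-elongated and 58.5 against 6.96 CPM in elongated organoids. Pax5 had 29.8 against 1.95 CPM and 31.0 against 3.48 CPM. En1 led its genes by fold in both libraries, and Otx2, Pax2, Pax5, Wnt1 and Lmo1 followed among the first 10.

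In the Midbrain class En1 had 215 CPM (198 to 232) in non-elongated and 171 CPM (157 to 186) in elongated organoids. Otx2 had 71.2 CPM (61.7 to 81.7) in non-elongated and 47.4 CPM (40.1 to 55.6) in elongated organoids. En2 had 24.2 CPM in non-elongated and 16.4 CPM in elongated organoids, and Otx1 had 11.6 CPM in non-elongated and 3.48 CPM in elongated organoids. All 4 were thus higher in the non-elongated than in the elongated Midbrain class, and only the intervals of En2 overlapped (18.8 to 30.6 and 12.3 to 21.6). The gap for Otx1 rests on 33 UMIs in the non-elongated and 11 UMIs in the elongated class, and 7 of those 11 came from 1 cell. Gbx2 had 14.7 CPM (10.6 to 19.9) in the non-elongated and 20.9 CPM (16.1 to 26.5) in the elongated class, the third lowest of 7 classes in the non-elongated library and the fourth lowest in the elongated one.

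**Figure D2:**
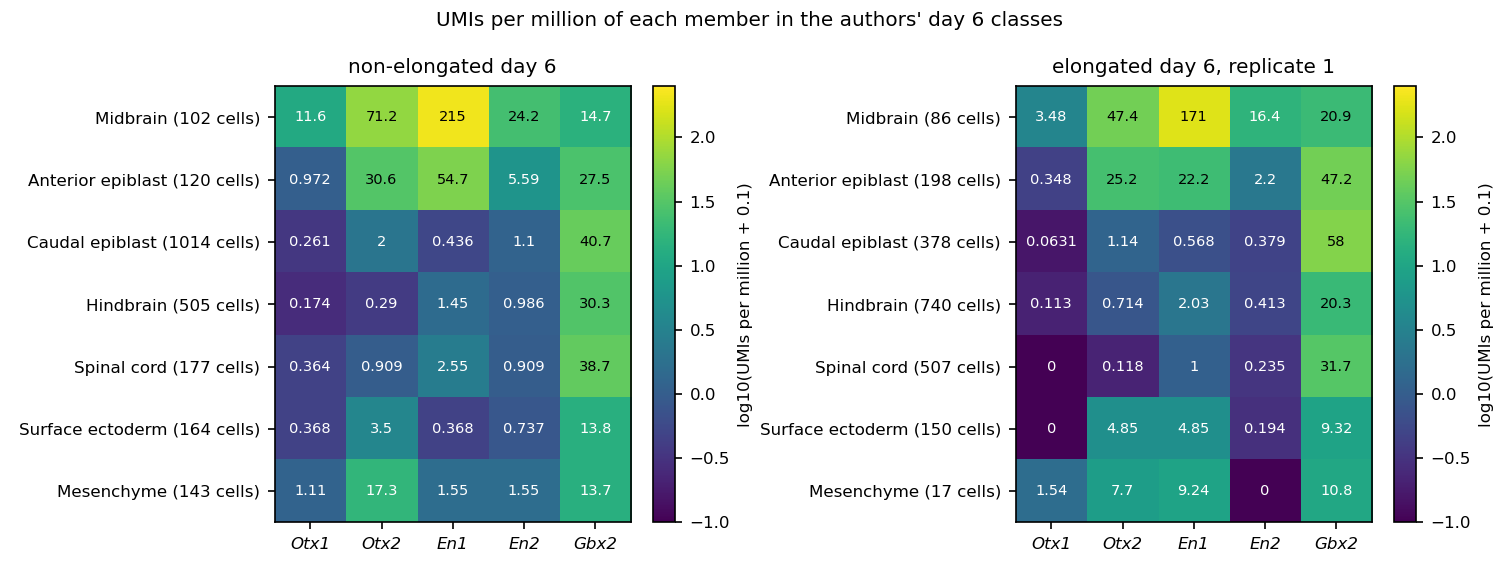
CPM of each gene (columns) in the authors' 7 day 6 classes (rows, with cell numbers), non-elongated library left and elongated replicate 1 right; colour is log10 of CPM plus 0.1. Otx2 and En1 stand at 71.2 and 215 in the non-elongated and 47.4 and 171 in the elongated Midbrain class, and Gbx2 is highest in Caudal epiblast in both.

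The class that the authors named Anterior epiblast, with 120 cells in the non-elongated library and 198 in elongated replicate 1, was the next highest for Otx2 (30.6 and 25.2 CPM) and En1 (54.7 and 22.2 CPM). Its 10 leading genes by fold held midbrain genes. These were Tal2, En1 and Pax2 in the non-elongated library and Otx2, at rank 10, in the elongated one. None of the listed epiblast genes stood among them, and Rhox5 led the elongated class (84.5 CPM, against 4.74 CPM in the other cells). The 5 midbrain markers, which include Otx2, En1 and En2, sum to 139 CPM in the class and 25.8 CPM in the other cells of the non-elongated library. In the elongated one they sum to 85.2 and 24.7 CPM. The 8 epiblast genes were also higher in the class, with 710 against 588 CPM in non-elongated and 622 against 268 CPM in elongated organoids. Together with the Midbrain class it made up 9.98% of non-elongated and 13.7% of elongated cells. These cells held 93.0% of En1 UMIs in the non-elongated and 86.8% in the elongated library, 65.1% and 84.2% of Otx2 UMIs, and 56.4% and 76.3% of En2 UMIs. Gbx2 was spread more evenly, with 6.38% of its UMIs in those cells in the non-elongated and 18.7% in the elongated library. In the non-elongated library a further 15.4% of Otx2 UMIs (78 UMIs, 17.3 CPM) came from the 143 cells of the Mesenchyme class.

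Gbx2 was highest in the Caudal epiblast class, with 40.7 CPM (38.6 to 42.9) in 1014 non-elongated cells and 58.0 CPM (54.3 to 61.9) in 378 elongated cells. The Spinal cord class followed in the non-elongated library with 38.7 CPM (33.7 to 44.3), whose interval overlaps that of Caudal epiblast. In elongated replicate 1 the Anterior epiblast class was second, at 47.2 CPM (42.8 to 52.0), and the Spinal cord class next, at 31.7 CPM (29.1 to 34.5). The Hindbrain class had 30.3 CPM (27.7 to 33.0) in non-elongated and 20.3 CPM (18.7 to 22.1) in elongated organoids. Gbx2 was lowest in Surface ectoderm and Mesenchyme, at 9.32 to 13.8 CPM. Among classes of at least 50 cells, the highest exceeded the median class by 1.48 times for Gbx2 in the non-elongated and 2.21 times in the elongated library, against 139 and 49.7 times for En1 and 20.3 and 15.8 times for Otx2.

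Shares of cells with a UMI were compared after thinning each cell to 10000 UMIs. In the Midbrain class, 38.2% of non-elongated cells (exact binomial interval 28.8 to 48.4) and 18.6% of elongated cells (11 to 28.4) had an Otx2 UMI. En1 was found in 73.5% (63.9 to 81.8) of non-elongated and 61.6% (50.5 to 71.9) of elongated cells. Unthinned, the shares were 60.8% and 34.9% for Otx2 and 89.2% and 77.9% for En1, at median depths of 26739 UMIs in the non-elongated and 34717 in the elongated class. In the Spinal cord class, which should lack Otx2, 1.13% of non-elongated and 0.197% of elongated cells had an Otx2 UMI after thinning, at median depths of 29155 and 31811 UMIs. The Midbrain shares lie far above that background. Of the unthinned Midbrain cells, 97 of 102 non-elongated and 67 of 86 elongated cells had Otx2 or En1.

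Otx2 and Gbx2 repress each other at the embryonic boundary, so their presence in the same cell was counted beside the number expected if both were detected independently within the class. In the Midbrain class, unthinned, 6 non-elongated cells held both against 14.0 expected, a ratio of 0.429 (0.157 to 0.934). In elongated replicate 1, 3 cells held both against 10.1 expected, a ratio of 0.297 (0.0612 to 0.867). Counting only genes with at least 2 UMIs in a cell, no Midbrain cell held both in either library, where 4.32 non-elongated and 4.09 elongated cells were expected. After thinning to 10000 UMIs, 2 non-elongated cells against 4.21 and 0 elongated cells against 3.16 remained, and the upper limits then pass 1 (1.72 and 1.17). The pair was below independence in the Midbrain class of both libraries.

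In the Anterior epiblast class the ratios for Otx2 with Gbx2 were 0.641 (0.359 to 1.06) in non-elongated and 0.778 (0.525 to 1.11) in elongated organoids. At 2 UMIs or more, 1 non-elongated cell held both against 7.15 expected (0.14, 0.00354 to 0.779), and 9 elongated cells against 15.6 (0.579, 0.265 to 1.10). In Caudal epiblast 48 non-elongated cells held both against 41.3 expected (1.16), and 13 elongated cells against 11.3 (1.15). Of the other pairs in the Midbrain class, En1 with Gbx2 had ratios of 0.877 in non-elongated and 0.841 in elongated cells, and En1 with En2 had 1.09 and 1.13. Otx2 with En1 was found in 56 non-elongated cells against 55.3 expected, and in 30 elongated cells against 23.4, which were all 30 elongated Midbrain cells with an Otx2 UMI. Otx1 went with Otx2, since 19 of the 20 non-elongated Midbrain cells with an Otx1 UMI also had Otx2, where 12.2 were expected. Apart from Otx2 with Gbx2 in non-elongated Anterior epiblast at 2 UMIs or more, the intervals of all these ratios include 1. No doublet caller was run, and doublets would add cells with both genes.

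**Figure D3:**
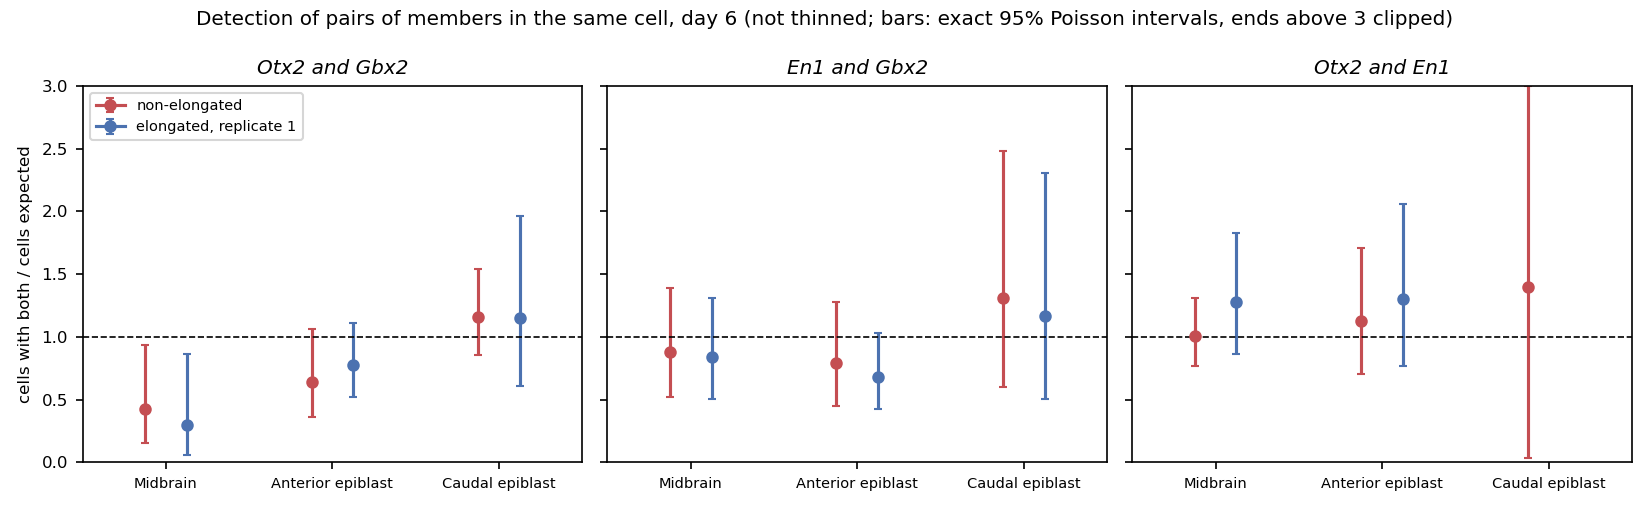
Cells that held UMIs of both genes divided by the number expected under independent detection, by authors' class at day 6, unthinned; points are non-elongated (red) and elongated replicate 1 (blue), bars are exact 95% Poisson intervals with ends above 3 clipped, and the dashed line marks 1. Otx2 with Gbx2 in the Midbrain class stands at 0.429 and 0.297. No elongated point is drawn for Otx2 with En1 in Caudal epiblast, where too few cells were expected or found for the ratio to be kept.

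Within the Anterior epiblast class, cells with an Otx2 UMI differed from those without one in other genes too. Cells chosen by a detected UMI tend to be deeper (median 33389 against 32697 UMIs in non-elongated, 45732 against 40715 in elongated organoids), so levels are given as CPM. Gbx2 had 14.3 CPM in the 52 Otx2-detected and 37.8 CPM in the 68 other non-elongated cells, and 29.6 CPM in the 57 and 55.3 CPM in the 141 elongated cells. Tal2, a midbrain interneuron regulator, had 50.1 against 7.39 CPM in non-elongated and 18.1 against 1.35 CPM in elongated cells. Hesx1, a forebrain and anterior neural ridge factor, had 18.7 against 1.30 CPM in non-elongated and 13.7 against 3.04 CPM in elongated cells. Pou5f1 (Oct4), the epiblast pluripotency factor, was present on both sides, at 150 against 135 CPM in non-elongated and 171 against 79.3 CPM in elongated cells. Utf1, another listed epiblast gene, led the elongated Otx2-detected cells by fold, at 60.7 against 9.97 CPM. It was not among the 10 leading genes of the non-elongated set.

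The Otx2 of the non-elongated Mesenchyme class went with another set of genes. The 26 cells with an Otx2 UMI had 141 CPM of Eomes, a mesendoderm regulator, against 20.3 CPM in the 117 cells without one. Gsc, the organiser homeobox gene, had 41.5 against 4.72 CPM, and Lefty2, a Nodal antagonist, 100 against 8.62 CPM. Lhx1 had 386 against 97.0 CPM and Mesp1, a mesoderm factor, 296 against 78.9 CPM. En1 had 2.18 against 1.39 CPM there, which is 2 and 5 UMIs, too few to compare. This list was chosen after values had been seen.

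In elongated organoids from replicate 2 to day 10 the authors used a single Mid/hindbrain class, which held 2173 cells (90.5% of the library) at day 6, 2108 (82.2%) at day 7, 1746 (52.3%) at day 8 and 1035 (28.1%) at day 10. The midbrain genes were scarce in it. Otx2 had 0.728, 1.25, 0.0150 and 0.344 CPM at days 6, 7, 8 and 10, En1 had 2.73, 0.609, 0.554 and 0.551 CPM, and En2 had 0.339, 0.0909, 0.0300 and 0.172 CPM. Gbx2 had 37.2, 5.03, 14.9 and 13.6 CPM. The class was led by genes such as Fst, Fgf3 and Epha4 at day 6 and Egr2, the rhombomere 3 and 5 factor, at day 7, and Fgf3, Epha4 and Egr2 are genes of hindbrain rhombomeres. Summed over the 5 midbrain markers it had 14.0, 3.30, 1.00 and 1.48 CPM at days 6, 7, 8 and 10, against 406 and 324 CPM in the day 6 Midbrain class of the other table. That sum includes Otx2, En1 and En2. The Mid/hindbrain class spans 90.5% of its library at day 6, whereas the Midbrain class holds 102 and 86 cells, so the sums differ in scope. Over all cells, elongated day 6 replicates 1 and 2 had 11.5 and 2.83 CPM of En1, 5.97 and 0.743 of Otx2, and 1.27 and 0.382 of En2 (TMM-scaled). Pax2 had 9.57 and 8.14 CPM there, and Pax5 4.86 and 2.95 CPM.

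The Otx2 that remained was concentrated in very few cells. In elongated day 6 replicate 2, the 10 cells richest in each gene held 54.3% of Otx2 and 56.0% of En1 UMIs. Its 6 cells with at least 3 Otx2 UMIs had 368 CPM of En1 (315 to 427), against 1.33 CPM in the 2347 cells with none. They also had 70.5 against 1.75 CPM of Wnt1, 57.7 against 7.33 CPM of Pax2, 44.9 against 2.57 CPM of Pax5 and 32.1 against 0.255 CPM of En2. These are genes of the Midbrain class of the other table, and the cells amount to 6 of 2402. Gbx2 had 40.6 CPM in those 6 cells, against 37.5 CPM in the cells without Otx2, but its 19 UMIs came from 2 of them.

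At day 7 the 10 richest cells held 85.2% of Otx2 and 94.7% of Otx1 UMIs. The 13 cells with at least 3 Otx2 UMIs had 59.5 CPM of Otx1 (44.7 to 77.6), against 0.0228 CPM in the 2539 cells without Otx2. Otx1 and Otx2 were found together in 10 cells of the library, against 0.132 expected under independent detection. Of 57 Otx1 UMIs at day 7, 54 lay in those 13 cells. The same 13 cells had 51.7 against 0.569 CPM of Tal2, 29.7 against 0.364 CPM of Wnt8b, a forebrain Wnt ligand, 29.7 against 0.827 CPM of En1 and 24.2 against 0.258 CPM of Pax5. Gbx2 had 1.10 against 5.76 CPM, 1 UMI in the 13 cells, and Pax2 had 0 UMIs there. At day 8 the library held 9 Otx2 UMIs in 5 of 3337 cells.

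At day 10 Otx2 was found in another class. Of 439 Otx2 UMIs, 414 (94.3%) lay in the 255 cells (6.94%) of the class that the authors named Pre-EMT cranial neural crest, at 51.8 CPM (47 to 57.1), against 0.305 CPM in all other cells. The class of that name had 1, 3 and 3 Otx2 UMIs at days 6, 7 and 8, in 52, 133 and 76 cells. After thinning to 10000 UMIs, 22.4% of its day 10 cells had an Otx2 UMI, and unthinned 36.9%. In the day 10 Mid/hindbrain class 0.387% of cells had one after thinning, with median depths of 28865 UMIs in the cranial and 25975 UMIs in the Mid/hindbrain class. Without the day 10 library the slope of Otx2 over days was -2.38 (adjusted p = 0.134), and in neural progenitor classes alone its day 10 log2 fold change was -3.13 (0.0795), where that class is left out.

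Of the 6 listed crest markers, Foxd3 and Sox10 were nearly absent from that class at day 10, and the others are not given singly in the text. At day 6 (replicate 2) and day 7 its 10 leading genes by fold held Krt8 and Krt18, keratins of surface ectoderm, with 7 listed surface ectoderm markers at a summed 1430 CPM against 103 CPM in the other cells at day 6 and 328 against 30.9 CPM at day 7. No listed crest marker stood among its 10 leading genes at days 6, 7, 8 or 10, and whether the name covers the same cells on each day was not tested. At day 10 Foxd3 had 0 UMIs in its 255 cells and Sox10, the migratory crest factor, had 1. The 6 crest markers sum to 110 CPM in the class, against 197 CPM in the other day 10 cells. Those other cells include the Migratory cranial neural crest class, where Sox10 had 374 CPM. A set of 15 genes of choroid plexus and roof plate sums to 518 against 113 CPM, of which Ttr alone gives 135 CPM in the class. That list was chosen after values had been seen, so its sum cannot test the name of the class. Its leading genes by fold were Ttr (transthyretin, the carrier protein secreted by choroid plexus), Gm48898, Rspo1, Ldb2, H19 and Otx2. Rspo1 had 499 CPM in the class and 36.6 CPM in the rest, and Bambi, a BMP pseudoreceptor, 176 and 15.9 CPM.

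Within the class, 94 cells had an Otx2 UMI (median 33023 UMIs) and 161 had none (median 26359 UMIs). Gmnc, a regulator of multiciliated cells, had 43.7 CPM in cells with Otx2 (36.9 to 51.4, in 37 cells), against 7.97 CPM in those without. Prdm16 had 48.5 against 15.1 CPM and Rspo2, a Wnt agonist, 20.6 against 3.02 CPM. Ttr had 322 CPM in cells with Otx2 and 0 UMIs in the others, but its 1077 UMIs came from 5 cells. The roof plate genes Msx1 (224 against 239 CPM), Wnt1 (176 against 187 CPM) and Lmx1a (24.2 against 20.9 CPM) were at similar levels in both sets. The trunk genes Hoxa5 (0.897 against 10.3 CPM) and Hoxb8 (0.598 against 8.62 CPM) were lower with Otx2, and Pax3, a dorsal neural tube and tectal factor, had 6.28 against 25.4 CPM. En1 had 4.19 against 2.15 CPM (14 and 10 UMIs), and En2 had 0 UMIs in both sets. Gbx2 had 11.7 against 17.9 CPM. The engrailed genes thus stayed far below their levels in the day 6 Midbrain class.

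**Figure D4:**
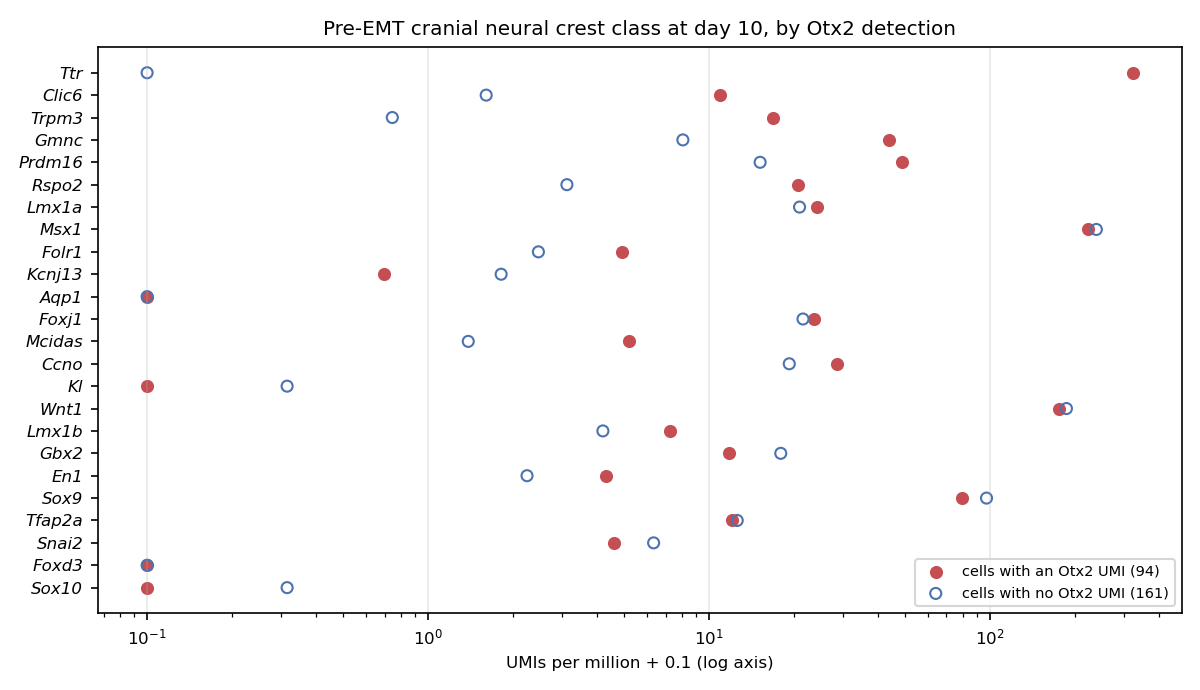
Level of named genes in the day 10 Pre-EMT cranial neural crest class, in CPM plus 0.1 on a log axis, in 94 cells with an Otx2 UMI (filled) and 161 cells with none (open). Gmnc, Prdm16 and Rspo2 lie further right in cells with Otx2, Msx1 and Wnt1 coincide, and Foxd3 has 0 UMIs in both sets, drawn at 0.1.

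En1 was found outside the midbrain classes at the later days. In the class named Pre-EMT vagal/trunk neural crest it had 1.64 CPM at day 6 (replicate 2), 26.9 CPM (19.6 to 36.2) at day 7, 7.39 CPM (4.73 to 11) at day 8 and 11.4 CPM (7.97 to 15.9) at day 10, in 45, 30, 69 and 105 cells. At days 8 and 10 it was the highest class of at least 50 cells for En1. Cells of this class with an En1 UMI had more trunk Hox transcript, at median depths no higher than those of the other cells (22756 against 27615 UMIs at day 10). Hoxc8 had 30.4 against 1.06 CPM in 14 and 16 cells at day 7, 82.3 against 23.1 CPM in 17 and 52 cells at day 8, and 179 against 31.2 CPM in 21 and 84 cells at day 10. Hoxa7 had 88.8 against 17.0 CPM and Hoxc6 121 against 24.1 CPM at day 10. None of these day 10 cells with En1 had a UMI of En2, Pax2, Pax5 or Otx2, the genes that accompanied En1 at day 6.

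The highest En1 level at day 8 was in Dorsal interneuron 1, at 52.8 CPM (38.2 to 71.1), but its 43 UMIs came from 3 of 34 cells, 25 of them from 1 cell. At day 10 the same class had 3.63 CPM (2.50 to 5.10) in 435 cells. V1 interneurons, the spinal inhibitory neurons that use En1, have Foxd3, Lhx1, Foxp2, Calb1, Sp9 and Bhlhe22 among their known genes, and 4 of these 6 were higher and 0 lower at day 8 than at day 6, 4 higher and 1 lower at day 10, and 1 higher and 1 lower at day 7. Among all genes 1.9%, 6.74% and 14.1% were higher on days 7, 8 and 10. Lhx1 was led at day 10 by Dorsal interneuron 2, at 550 CPM against 14.7 CPM in the other cells, a class where En1 had 0.822 CPM. The 6 cells with at least 3 En1 UMIs at day 8 had 58.1 CPM of Lhx1 in 3 cells and 68.7 CPM of Sp9 in 3 cells, against 4.27 and 2.42 CPM in the cells without En1. Calb1 had 0 UMIs and Foxp2 1 UMI there, and Foxd3 and Bhlhe22 are not given for these cells. Lamp5 (73.9 against 0.624 CPM), Mab21l2 and Hmx2, which are not in the V1 list, led these cells by fold. Whether they are V1 interneurons was not tested. En2 had 27 UMIs at day 8, of which 16 lay in the Spinal cord class (0.715 CPM, 0.409 to 1.16).

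Gbx2 was lower at day 7 than at day 6 in all 4 classes followed across days, without a test. It had 37.2 CPM at day 6 and 5.03 CPM at day 7 in the Mid/hindbrain class, and in the Spinal cord class 34.0, 16.1, 16.9 and 29.3 CPM at days 6, 7, 8 and 10. In the class named Pre-EMT cranial neural crest, whose leading genes differed between days, it had 32.1, 8.75, 14.1 and 15.3 CPM at those days, and in Pre-EMT vagal/trunk neural crest 57.0, 20.8, 13.8 and 2.29 CPM. The Spinal cord class at day 10 (25.1 to 34.0) thus overlapped its own day 6 interval (30.0 to 38.4), and the vagal/trunk class lay at its lowest at day 10. The values at day 7 are lowest in 3 of these 4 classes. In the order of all 11 day 10 classes, Gbx2 had 0.974 CPM in Migratory cranial neural crest, 1.71 in Dorsal interneuron 3, 2.29 in Pre-EMT vagal/trunk neural crest, 3.87 in Dorsal progenitor 1, 4.52 in Dorsal interneuron 2 and 6.82 in Dorsal interneuron 1. Proliferative neural progenitor (10.9 CPM), Mid/hindbrain (13.6 CPM), Pre-EMT cranial neural crest (15.3 CPM), Dorsal progenitor 2/3 (16.9 CPM) and Spinal cord (29.3 CPM) followed. Neighbours overlapped in their intervals except the Spinal cord class, which lay above Dorsal progenitor 2/3 (14.0 to 20.3). Dorsal progenitor 1 lay among the interneuron classes.

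**Figure D5:**
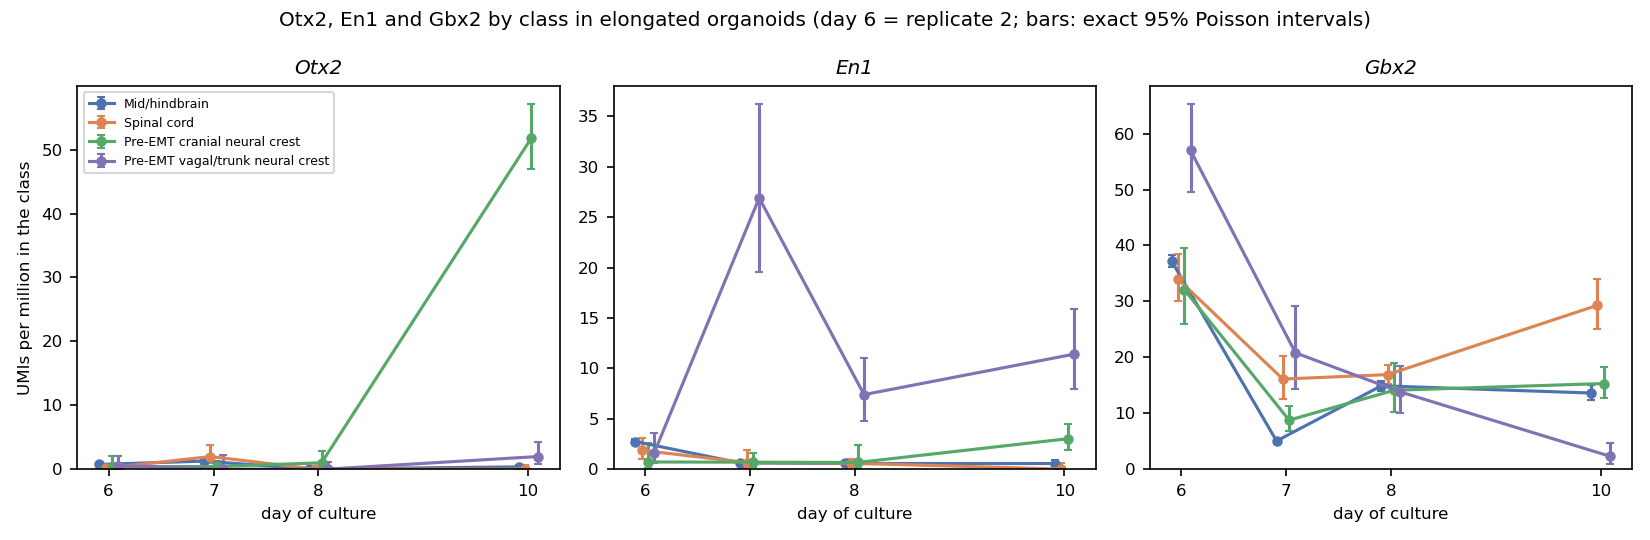
Otx2, En1 and Gbx2 in 4 of the authors' classes in elongated organoids at days 6 (replicate 2), 7, 8 and 10, in CPM of the class with exact 95% Poisson intervals; each gene has its own axis. Otx2 stands at 51.8 in the cranial class at day 10, En1 at 26.9 in the vagal/trunk class at day 7, and Gbx2 is lower at day 7 than at day 6 in all 4 classes.

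Cells rich in Gbx2 at day 6 had higher levels of Pou5f1 in all 3 libraries, a description of cells chosen by their Gbx2. In the non-elongated library, 307 cells with at least 3 Gbx2 UMIs (median 36826 UMIs) had 277 CPM of Pou5f1, against 174 CPM in 1057 cells without Gbx2 (median 30343 UMIs). In elongated replicate 1, Cdx2, the caudal homeobox factor, had 101 CPM in 343 such cells, against 19.5 CPM in 1035 cells without Gbx2, and Pou5f1 had 113 against 34.2 CPM. In replicate 2, Pou5f1 had 63.3 against 26.4 CPM. Otx2 was lower in Gbx2-rich cells, at 1.77 against 11.3 CPM in non-elongated cells, 1.71 against 8.45 CPM in elongated replicate 1 and 0.341 against 2.03 CPM in replicate 2.

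Gbx1, the paralogue of Gbx2 that marks dorsal spinal cord, did not run with it. It had 12.0 CPM at day 7, 13.3 CPM at day 8 and 5.47 CPM at day 10, against 3.05 and 4.54 CPM in the elongated day 6 replicates, and 2.05 CPM in non-elongated organoids. Gbx1 rose at day 8 (1.81 ± 0.36 on the log2 scale, adjusted p = 0.0174), where Gbx2 fell.

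The genes that work with these factors were read from the same fit, by lists chosen with earlier results of these data known. Of 17 isthmic organiser signals and factors, 0 were called in non-elongated over elongated organoids at day 6, 1 was higher and 11 lower at day 7, 2 higher and 12 lower at day 8, and 4 higher and 9 lower at day 10. Among all genes 2.09%, 6.64% and 12.3% were lower and 1.9%, 6.74% and 14.1% higher on those days, and the list's median log2 fold changes were -2.75, -2.25 and -1.56 beside -0.01, 0.00 and -0.01 over all genes. Fgf8, the isthmic organiser signal, had 33.1 CPM in non-elongated and 13.0 and 10.4 CPM in elongated day 6 organoids. It then had 0.185 CPM at day 7, 0.0252 CPM at day 8 and 0 UMIs at day 10. Between the elongated day 6 duplicates, which stood apart in Otx2 and En1, Fgf8 and Sp8 (23.9 and 25.2 CPM) changed little. Fgf17 (2.59 and 0.524 CPM) and Pax8 (2.77 and 0.821 CPM) were among the listed genes lower in replicate 2. Whether the listed genes came from midbrain or isthmus cells was not tested. Hes3, a Hes factor of the isthmus, had 91.1 and 115 CPM in elongated day 6 replicates 1 and 2, and 8.71, 4.41 and 0.761 CPM at days 7, 8 and 10 (log2 fold change -7.08 ± 0.41, adjusted p = 0.000109 at day 10). Log2 fold changes were -5.97 ± 0.49 for Fgf8 at day 7 (adjusted p = 0.00355), -3.6 ± 0.61 for Pax5 at day 8 (0.00975) and -6.5 ± 0.47 for Sp8 at day 10 (0.000208). Pax2 was lower at day 7 (-3.04 ± 0.41, 0.0107) and had -0.23 ± 0.35 (0.658) at day 10, when it lay in Dorsal interneuron 2 (86.2 CPM, against 1.54 CPM in the other cells).

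Wnt1 moved the other way. It had 63.0, 31.3 and 43.2 CPM at days 7, 8 and 10, against 5.33 and 2.18 CPM in elongated day 6 replicates 1 and 2, and it rose by 4.08 ± 0.48 on the log2 scale at day 7 (adjusted p = 0.00658) and by 3.53 ± 0.48 at day 10 (0.0022). Wnt1 is also a gene of the whole dorsal midline, and at day 7 the 13 Otx2 cells had 19.8 CPM of it, against 64.1 CPM in cells without Otx2. These are 18 UMIs in the Otx2 cells and 8451 in the cells without Otx2. Lmx1b rose by 1.53 ± 0.38 (0.0235) and Fgf18 by 2.35 ± 0.47 (0.0106) at day 10.

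Of 11 tested midbrain tectal and floor genes, 2 were higher and 0 lower at day 7, 3 higher and 1 lower at day 8, and 2 higher and 3 lower at day 10. Among all genes 1.9%, 6.74% and 14.1% were higher and 2.09%, 6.64% and 12.3% lower on days 7, 8 and 10. The ones that rose, Pax7, Pax3 and Barhl1, are also dorsal neural tube genes: Pax3 had 119, 175 and 132 CPM at days 7, 8 and 10, against 39.9 and 31.2 CPM in elongated day 6 replicates 1 and 2. At day 10 Tal2 had -3.41 ± 1.00 (adjusted p = 0.0429) and Gata3, also a midbrain interneuron factor, -6.07 ± 1.58 (0.0284). The elongated day 6 replicates 1 and 2 stood apart in both, at 1.92 and 0.467 CPM for Tal2 and 5.02 and 0.545 CPM for Gata3. The day 10 levels, 0.11 CPM for Tal2 and 0.04 CPM for Gata3, lay below both duplicates. Of 11 tested forebrain genes, 0 were higher on days 7 and 8, and 1, 3 and 4 were lower on days 7, 8 and 10. Hesx1 and Fezf2, both forebrain factors, had 0 UMIs at day 10, and Six3, an eye and forebrain factor, had 0 UMIs from day 7 on. Lhx2, a forebrain factor that dorsal spinal neurons also use, was the 1 that rose at day 10, by 4.21 ± 0.43 (0.00071).

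Of 13 tested hindbrain genes, 1 was higher and 2 lower at day 7, 2 higher and 4 lower at day 8, and 4 higher and 5 lower at day 10. The shares of all genes on days 7, 8 and 10 were 1.9%, 6.74% and 14.1% higher and 2.09%, 6.64% and 12.3% lower. Hoxa2 rose by 2.01 ± 0.24 at day 7 (adjusted p = 0.0075), while Fgf3 had -4.61 ± 0.55 (0.00134) and Egr2 -5.46 ± 0.56 (0.000718) at day 10. All 6 tested epiblast genes were lower at days 7 and 8 and 5 of 6 at day 10. Pou5f1 had 234 CPM in non-elongated and 59.3 and 52.5 CPM in elongated day 6 replicates 1 and 2, and 1.89, 1.52 and 1.73 CPM at days 7, 8 and 10. The epiblast genes thus fell on the same day as Gbx2, and any link between them was not tested. None of these lists had a called gene between non-elongated and elongated organoids. Estimates there, for genes of at least 5 CPM, were 2.47 ± 0.79 for Fgf17 (adjusted p = 0.53), 3.06 ± 0.34 for Lhx1 (0.132), 2.14 ± 0.44 for Utf1 (0.275), 2.06 ± 0.25 for Pou5f1 (0.132), -1.58 ± 0.41 for Fgf15 (0.403), -1.5 ± 0.45 for Fgf3 (0.497), -1.23 ± 0.31 for Irx2 (0.386), 0.94 ± 1.00 for Gata3 (0.999), -0.82 ± 0.29 for Pax3 (0.595) and -0.02 ± 0.37 for Lhx5 (0.999).

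The genes most like each member were found by Pearson correlation of log2(CPM + 1) over units of 1 class in 1 library with at least 50 cells, as a description; units of 1 library share its depth and preparation. Over the 13 units of the day 6 table and 6491 genes, En2 was the gene most like Otx1 (r = 0.94), before Zyg11b (0.93) and Tle3 (0.92). Lars led for both En1 (0.98) and En2 (0.93), with Mettl22 and Fam160b1 next for En1 (0.95 each) and En1 and Ttc9c next for En2 (0.92 each). Tex15 (0.94), Car4 and Carhsp1 (0.92 each) led for Otx2, and Hells, a chromatin remodeller of dividing cells, and Rpf2 (0.95 each) for Gbx2, before Wdr77 (0.92). Over the 27 units of the other table and 8581 genes, Otx2 was most like Ccno (0.85), Gmnc (0.81) and Ttr (0.77). That order rests on the day 10 cranial class, the only unit where Otx2 was high. En2 was most like Pax2 (0.69), Phlda3 (0.66) and Ppp1r15a (0.64), and En1 most like Plxnc1 (0.70), Hivep3 (0.67) and Tmem150c (0.63). Otx1 was most like Lratd1 (0.60), Tmem38b (0.52) and Efnb2 (0.50), and Gbx2 most like D10Wsu102e and Stard4 (0.83 each) and Ak4 (0.82). No unit there had more than 0.844 CPM of Otx1 or 1.41 CPM of En2, so the orders for Otx1 and En2 rest on few UMIs.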

How the data were processed

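The authors deposited raw UMI counts per gene and cell in 2 tables (18144 and 21062 genes), with per-cell counts, the mitochondrial share in percent (at most 7.49% and 9.97%), and library and class names, which carry no unit (other). Cell Ranger 3.1 and build mm10 are given per the submitters' processing notes; cell filtering and class assignment are not given in the sources used here. NENT and SENT, the library names used in one table, were taken by their first letters to mean non-elongated and elongated, which no label spells out. All 16282 deposited cells were used, with classes as deposited.

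UMIs were summed per library and tested with edgeR 4.0.16, limma 3.58.1 and R 4.3.3 (TMM, filterByExpr with a minimum count of 10, quasi-likelihood F test, Benjamini-Hochberg threshold 0.05), with a mean for each of 5 groups. This leaves 1 residual degree of freedom, from the elongated day 6 duplicates, which differ in table and batch label, and groups with 1 library borrow that spread (common dispersion 0.0872). The slope fit has 3. Alternatives were RLE or no scaling, other count filters, DESeq2 1.42.0, progenitor classes only, and each library left out. The progenitor restriction leaves out the epiblast classes, which only the day 6 table names. The scripts recovered known changes in simulated counts. Thinning to 10000 UMIs drew UMIs without replacement and left out shallower cells. Sequences and coordinates are from GENCODE M21, GRCm38, the genome release that mm10 names.

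The members and gene lists were chosen with earlier results of these data known, and the choroid plexus and roof plate, anterior mesendoderm and trunk Hox lists, the cell sets chosen by UMIs of a member, and the genes named in them, after their values were seen. By rule, named genes are the 5 members, the 3 genes most like each per table, and from each list genes among the 4 largest called in a comparison or, with none called, the 2 largest of at least 5 CPM; Pax2, Lmx1b, Fgf18 and the day 10 value of Wnt1 were added after their values were seen. Class levels and shares have no test. Some genes of the lists are not reported here.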

Additional observations from a re-analysis of the deposited data

How the results depend on the processing

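Of 210 values of single members under alternatives, 183 counted as the same as the main value, and no scaling turned a direction. With an adjusted p-value, the same means that direction and side of the threshold were kept. For the others, mainly those against 1 day 6 duplicate alone, it means the same direction and a shift below a bound set by the duplicate gap. Otx2 turned direction most often. In progenitor classes alone it had -3.13 at day 10 and -0.90 as a slope, and with one library left out it ranged from -2.08 to 0.90 at day 7, from -0.44 to 2.53 at day 10 and, as a slope, from -2.38 (without day 10; -0.06 without elongated day 6 replicate 2) to 0.58. Gbx2 in non-elongated over elongated organoids ranged from -0.21 to 0.02. En1 was called by DESeq2 at days 7, 8 and 10 (adjusted p 0.00247, 0.0038 and 0.00529), over ranges of 0.00247 to 0.185, 0.0038 to 0.116 and 0.00529 to 0.0941. Members called were then 2 at day 7 and 2 at day 10, again 2 at day 10 with RLE, and 1 at day 8 without a filter or with a minimum of 100; leaving out a library gave 0 to 1 in the slope, where Gbx2 was called without day 7 (0.0237). Genes called in all were 21 with RLE and 127 with DESeq2 for non-elongated organoids, 380 with a minimum of 100 and 395 in progenitors at day 7, 2698 in progenitors at day 10 and 6019 with DESeq2 for the slope, which ranged from 636 (without elongated day 6 replicate 2) to 2953 genes with a library left out. For DESeq2 and RLE at days 7 and 10, and for the other filters at day 8, the share of all genes called is not given here. Those counts of members called therefore cannot be set against the background. The cause of these shifts was not tested.

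Shares of cells move with depth by construction. Thinned to 5000 UMIs, En1 was in 55.9% of non-elongated and 39.5% of elongated Midbrain cells (89.2% and 77.9% unthinned), and Otx2 in 60.8% and 34.9% unthinned. Otx2 in the day 10 cranial class was in 17.3% of cells at 5000 UMIs and 36.9% unthinned. The ratio of cells with Otx2 and Gbx2 went to 0.0 in the non-elongated Midbrain class at 2 UMIs or more, and in Anterior epiblast to 0.0 in non-elongated and 0.262 in elongated organoids at 5000 UMIs. Otx1 (4 to 58 UMIs a library) and En2 (16 to 163) are limited by depth, and with 1 residual degree of freedom a missed threshold does not show that levels were alike. No paired analysis was possible because only elongated day 6 has numbered libraries and every other group has 1.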
